A study of Mus musculus with 16 samples.

Results

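The secreted factors described here are 10 genes that act on the growth, sprouting and stability of blood and lymphatic vessels: the vascular endothelial growth factor (VEGF) family members Vegfa, Vegfb, Vegfc, Vegfd and Pgf (placental growth factor), the angiopoietins Angpt1 and Angpt2, and the angiopoietin-like genes Angptl1, Angptl2 and Angptl4. They were taken by symbol from a count table of 52997 genes. All 10 were in the table, and all 10 passed the filter on low counts that left 13949 genes to test. RNA-seq had been done on mesenchymal stromal cells of muscle (mSC), which build the connective tissue around muscle fibres, and the series asks how the neuropeptide CGRP (calcitonin gene-related peptide) acts on them. Every library came from hindlimb skeletal muscle of C57BL/6 mice aged 8 weeks, and each held the polyadenylated RNA of 1000 double-sorted cells. The mice had been given CGRP or phosphate-buffered saline (PBS) into the peritoneal cavity. The 4 groups were PBS at 4 h, CGRP at 4 h, PBS at 8 h and CGRP at 8 h, with 4 replicates in each and 16 libraries in all. No genotype or transgene is named for any group, and PBS is the control at both times. The CGRP dose, the surface markers of the sort and the number of mice behind a replicate are not given here, so p-values measure only the spread between these samples.

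VEGF ligands bind receptor tyrosine kinases on endothelial cells. VEGF-A drives sprouting of blood vessels, VEGF-B and PlGF (the product of Pgf) bind the receptor Flt1, and VEGF-C and VEGF-D act on lymphatic endothelium through Flt4 after proteases have trimmed their precursors. Angiopoietins bind the receptor Tek: the product of Angpt1 keeps vessels stable and that of Angpt2 mostly opposes it, while the angiopoietin-like proteins share their fold and do not bind Tek.

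Libraries held between 6373713 and 10011920 counts in genes, with 21138 to 25579 genes detected. The 11 stromal markers listed for these cells summed to 146680 to 187950 CPM (read counts scaled to library size, here with TMM factors) in the 4 h libraries and to 140620 to 177060 CPM in the 8 h libraries. None of the 11 was at 0 in a group. The sum was lower after CGRP than after PBS at both times, with no overlap between groups. It is weighted to the most abundant of these genes, and the 11 did not all move 1 way. At 4 h 2 of them rose and 5 fell, and at 8 h 2 rose and 3 fell. Over all genes 16.2% were called in either direction at 4 h and 8.67% at 8 h. Markers of other cells were far lower: group means of the summed CPM were 109 to 133 for 12 endothelial markers, 82.8% to 92.0% of it Tek, 103 to 193 for 10 pericyte and smooth muscle markers, 127 to 219 for 10 myofibre markers, 71.9 to 108 for 6 satellite cell markers, 13.1 to 18 for 10 macrophage markers, while 8 lymphocyte markers summed to 0.685 to 1.65 and 6 adipocyte markers to 0.155 to 3.67. The pericyte and smooth muscle sum was 136 to 184 CPM after PBS and 92.7 to 110 CPM after CGRP at 4 h, and the myofibre sum was 168 to 269 CPM after PBS and 113 to 161 CPM after CGRP at 8 h. Neither pair of groups overlapped. Without Tek the endothelial sum was 15.4 to 25.6 CPM after PBS and 4.87 to 14.7 CPM after CGRP at 4 h, with no overlap, and 11.7 to 17.9 CPM and 12.8 to 21.6 CPM at 8 h. Of 4 tested endothelial markers 2 fell at 4 h and 0 were called at 8 h (2 had an unadjusted p under 0.05, and DESeq2 called 1). Those that fell, chosen after their values were seen, were Plvap, a component of endothelial diaphragms (-1.61 ± 0.27, adjusted p = 0.000317), and the endothelial phosphatase gene Ptprb (-2.02 ± 0.54, adjusted p = 0.0132). All 4 were lower at 4 h, and 2 were higher and 2 lower at 8 h. Plvap carried much of the sum without Tek. It stood at 7.98 to 12.7 CPM after PBS and 2.26 to 4.52 CPM after CGRP at 4 h. At 8 h it stood at 5.37 to 10.8 CPM and 8.41 to 16.5 CPM. Pecam1 and Kdr, also of the 12, overlapped between the groups at 4 h. Pecam1 stood at 0.624 to 1.04 and 0.711 to 1.88 CPM, and Kdr at 0.416 to 2.19 and 0.102 to 2.51 CPM. Cldn5, another of these markers, was at 0 in the CGRP libraries at 8 h. The part of these other cells in the results on the secreted factors was not tested. Myf5, a satellite cell marker, was at 0 in all 4 groups, and Pax7, another, was at 0 after CGRP at 4 h. Of the 6 satellite cell markers 2 passed the filter. In 3 libraries, PBS at 8 h replicates 1, 2 and 3, 1.77% to 2.45% of the counts fell on the gene model Gm10800, against 0.536% to 1.01% in the others, and 4 libraries (PBS 4 h replicate 4, PBS 8 h replicates 1 and 4 and CGRP 4 h replicate 3) had the most genes detected. For many of the results that rest on these libraries, values without them are given as well. In bulk RNA, fewer cells of a type and less RNA per cell cannot be told apart.

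Levels differed widely between the secreted factors (the plot of levels per kilobase). Over the 16 libraries, on the scale of CPM per kilobase of exon, Angptl1 had the highest mean level, 127, followed by Angptl2 at 95, Pgf at 34.8, Angptl4 at 34.3, Vegfd at 11.6, Vegfc at 5.17, Angpt1 at 4.68, Vegfb at 1.86, Angpt2 at 1.56 and Vegfa at 0.497. Neighbours in that order were not all apart. Pgf exceeded Angptl4 in 10 of 16 libraries, Vegfc exceeded Angpt1 in 9 of 16 and Vegfb exceeded Angpt2 in 12 of 16. Within groups of 4, Pgf was higher than Angptl4 in 4 libraries after PBS at 8 h (means of 32.2 and 10.4) and in 1 after CGRP at 4 h (39.7 and 57.0). Vegfc was higher than Angpt1 in 4 after PBS at 4 h (7.52 and 4.90) and in 1 after CGRP at 8 h (3.23 and 4.12). Vegfb was higher than Angpt2 in 4 after PBS at 4 h (2.12 and 1.46) and in 2 after PBS at 8 h (1.90 and 2.19). The order of the group means of these pairs thus turned between groups, though Angpt2 exceeded Vegfb in most libraries of no group. Angptl1 exceeded Angptl2 in 14 of 16, but after PBS at 8 h in 2 of 4, with means of 118.3 and 118.1. Angptl4 exceeded Vegfd in 14 of 16, and after PBS at 8 h in 2 of 4. Angpt1 exceeded Vegfb in 16 of 16. Pgf made up most of the VEGF family on this scale, from 54.5% ± 3.17 (SD, n = 4) after PBS at 4 h to 76.2% ± 5.50 after CGRP at 8 h. Vegfa, the ligand best known from hypoxic tissue, had 0.599% to 1.07% of the family in the 4 groups and between 2 and 38 reads per library. Angpt1 made up 70.4% to 79.7% of the angiopoietin pair.

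**Figure D1:**
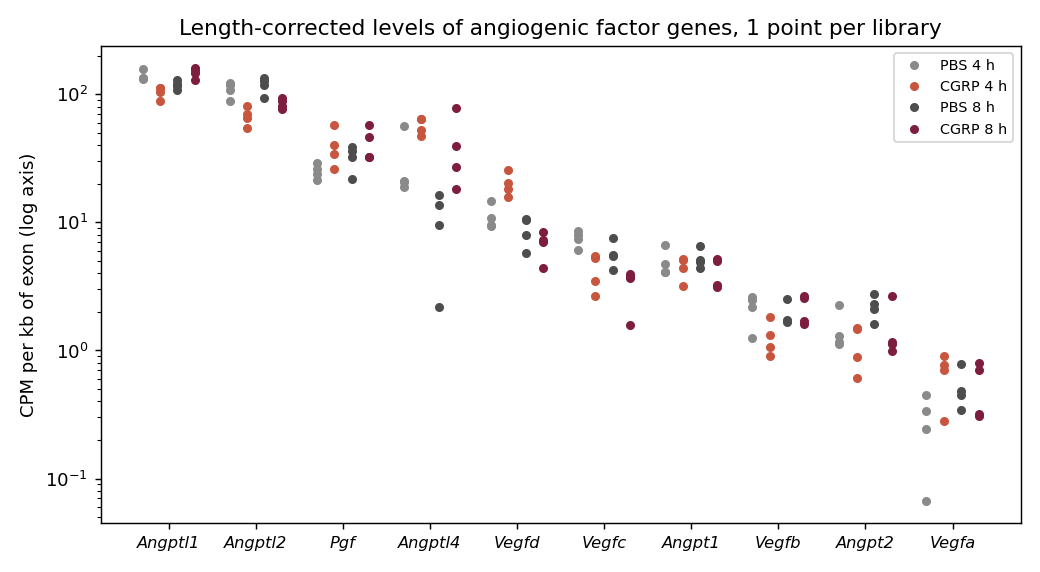
Level of each secreted factor in CPM per kilobase of exon (log axis), with 1 point per library, coloured by group. Angptl1 and Angptl2 lie highest and Vegfa lowest, a span from 127 to 0.497 between their means over the 16 libraries.

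The genes lie on 8 chromosomes of the mouse build GRCm38 (mm10), by the GENCODE M21 annotation. Vegfc covers chr8:54077606-54187096 on the plus strand, Vegfd chrX:164373378-164402650 on the plus strand, Angptl1 chr1:156838562-156861078 on the plus strand and Angptl2 chr2:33216069-33247717 on the plus strand. Pgf covers chr12:85166635-85177790, Vegfa chr17:46016993-46032369 and Vegfb chr19:6982473-6987651, each on the minus strand. Angptl4 covers chr17:33773750-33781830, Angpt1 chr15:42424723-42676977 and Angpt2 chr8:18690263-18741562, also on the minus strand. Exons of Angpt1 overlap the antisense gene Gm17473 over 737 bases (14.2% of its exon length) and exons of Angptl1 overlap Gm37802 over 465 bases (16.4%). The library kit does not mark the strand, so reads of these stretches cannot be assigned to either partner and the counts of Angpt1 and Angptl1 carry that uncertainty.

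Sequences at the RefSeq start sites are shown for the 4 genes that were called in a comparison of CGRP with PBS, because they changed in different directions. They come from RefSeq promoter windows of build GRCm38.p6, which held 7 of the 10 genes. Angpt1, Angpt2 and Angptl4 were not matched. CGRP receptors raise cyclic AMP, so the windows of 250 bases were searched on both strands for the cyclic AMP response element TGACGTCA, for its shorter core TGACG, for the AP-1 site TGANTCA and for the hypoxia cores ACGTG and GCGTG. The full element contains the shorter core. Capitals mark a match to TGACG, or to its reverse complement CGTCA. The Vegfc and Angptl2 stretches are the whole windows, at chr8:54077282-54077531 and chr2:33215711-33215960. The Vegfd stretch is chrX:164373272-164373377, the bases of its window next to the first annotated exon, and the Angptl1 stretch is chr1:156838865-156838889, the match with 10 bases on each side. The RefSeq start of Angptl1 lies 461 bases inside the gene as GENCODE has it, so this stretch is in the 5′ untranslated part of the first GENCODE exon and not in front of it. All are on the plus strand, 5′ to 3′.
Vegfc: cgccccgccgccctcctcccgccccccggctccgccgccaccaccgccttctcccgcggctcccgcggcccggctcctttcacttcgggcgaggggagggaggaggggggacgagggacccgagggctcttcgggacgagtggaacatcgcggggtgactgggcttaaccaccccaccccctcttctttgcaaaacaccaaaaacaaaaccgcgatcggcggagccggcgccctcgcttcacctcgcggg
Vegfd: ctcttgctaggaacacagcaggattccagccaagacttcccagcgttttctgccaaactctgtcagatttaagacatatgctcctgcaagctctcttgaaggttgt
Angptl1: tcttttctaaTGACGtaatatgtgg
Angptl2: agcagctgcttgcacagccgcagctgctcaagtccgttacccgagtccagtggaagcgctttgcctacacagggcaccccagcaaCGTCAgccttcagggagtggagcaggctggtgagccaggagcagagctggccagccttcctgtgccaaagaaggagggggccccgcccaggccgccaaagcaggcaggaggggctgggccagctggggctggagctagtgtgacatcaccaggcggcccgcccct

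The windows of Vegfc and Vegfd held none of the 5 motifs. Those of Angptl1 and Angptl2 each held TGACG once, 148 and 165 bases before the RefSeq start. Of 32851 mouse windows of the same length, 17.77% held TGACG, 1.546% the full element, 6.749% TGANTCA, 16.57% ACGTG and 28.16% GCGTG. A match describes the letters of a window, and no match says only that these letters are not in it.

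CGRP was compared with PBS at 4 h first. Of the 10 secreted factors, Vegfd rose while Vegfc, Angptl1 and Angptl2 fell, and the other 6 did not pass the test (the plots by library and of fold changes). Over all 13949 genes 16.2% were called in either direction in this comparison, 7.84% higher and 8.37% lower, at an adjusted p under 0.05 in edgeR's quasi-likelihood test with Benjamini-Hochberg adjustment over all genes. The median log2 fold change of the 10 genes was -0.26 against -0.0021 for all genes tested. In 4 of the 10 the PBS and CGRP libraries did not overlap, against 18.9% of all genes.

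**Figure D2:**
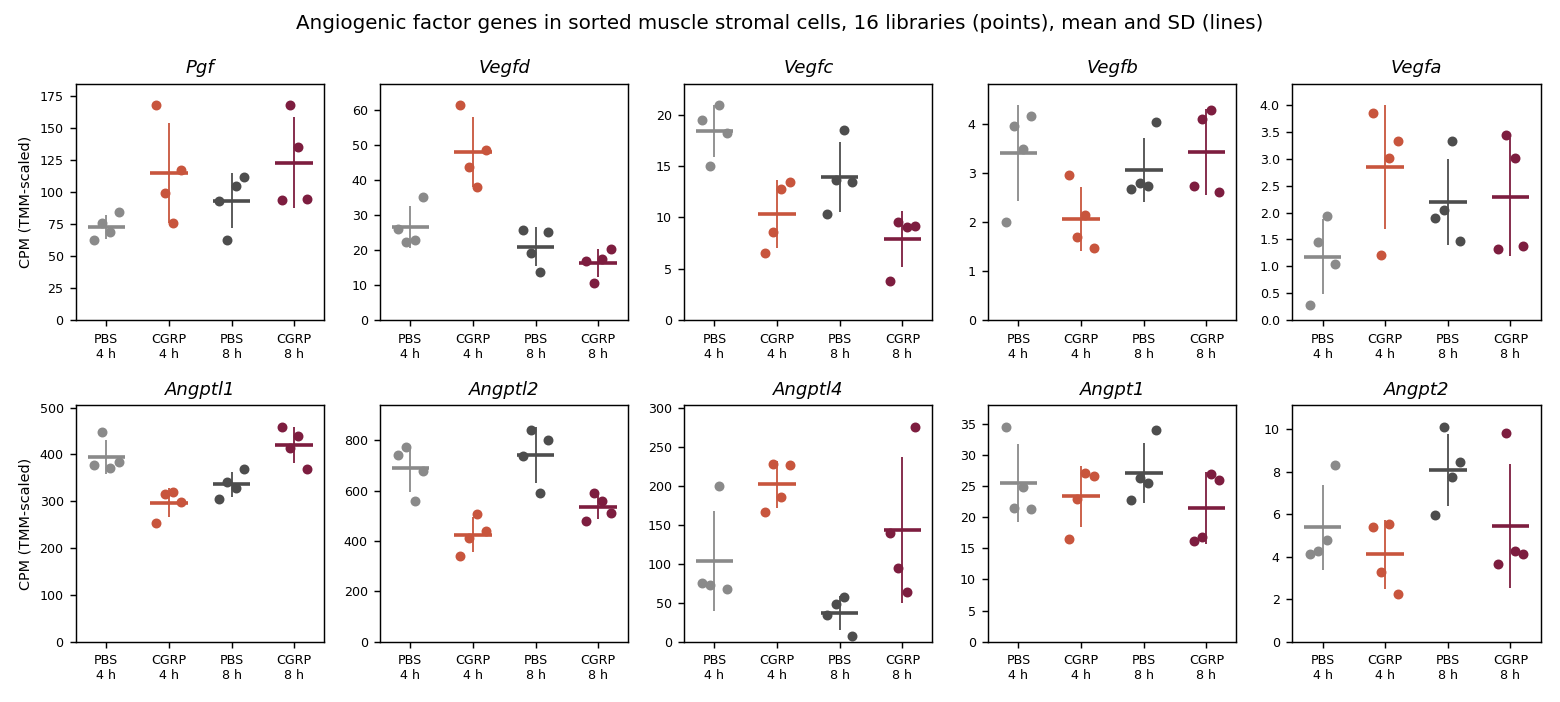
CPM of each of the 10 secreted factors in every library, by group, with group means and SD (n = 4). At 4 h all 4 CGRP libraries lie above all 4 PBS libraries for Vegfd and below them for Vegfc, Angptl1 and Angptl2.

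Vegfd, the lymphangiogenic ligand VEGF-D, stood at 26.1, 22.4, 22.8 and 35.2 CPM in the PBS libraries at 4 h and at 61.3, 43.8, 37.9 and 48.5 CPM in the CGRP libraries. Every CGRP library was above every PBS library. The mean went from 26.6 ± 5.95 to 47.9 ± 9.95 CPM (SD, n = 4), a log2 fold change of 0.85 ± 0.20 (SE, adjusted p = 0.00706). A two-sided exact permutation test on log2 CPM gave p = 0.0286, the smallest that 4 against 4 libraries allow. With each library left out in turn the log2 fold change stayed between 0.72 and 1.02 and the call was kept.

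Vegfc, the other lymphangiogenic ligand, moved the opposite way. It stood at 19.5, 15.0, 20.9 and 18.2 CPM after PBS and at 6.50, 8.59, 12.8 and 13.4 CPM after CGRP, again with no overlap. The mean fell from 18.4 ± 2.54 to 10.3 ± 3.34 CPM, with a log2 fold change of -0.84 ± 0.26 (adjusted p = 0.0272, exact permutation p = 0.0286). That call was lost without CGRP 4 h replicate 1 (-0.65, adjusted p = 0.104) or 2 (-0.75, adjusted p = 0.0803), and without PBS 4 h replicate 1 (-0.80, adjusted p = 0.0661) or 3 (-0.76, adjusted p = 0.0724). Of the VEGF family's level per kilobase, Vegfc had 16.5% ± 3.15 after PBS and 6.96% ± 3.23 after CGRP, and Vegfd 23.9% ± 3.15 and 30.5% ± 1.59.

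The other VEGF ligands did not pass the test at 4 h. Pgf stood at 62.3, 76.0, 68.7 and 84.5 CPM after PBS and at 168, 99.7, 76.0 and 117 CPM after CGRP, a log2 fold change of 0.66 (95% interval 0.12 to 1.21, adjusted p = 0.0965). CGRP replicate 3 lay within the PBS range, and without it the change was called (adjusted p = 0.0303). Vegfa, at 0.285 to 1.94 CPM after PBS and 1.21 to 3.86 CPM after CGRP, gave 1.25 (0.22 to 2.28, adjusted p = 0.0912) on 41 and 97 reads in all. It was called without CGRP 4 h replicate 2 (1.51, adjusted p = 0.0438). Vegfb gave -0.72 (-1.42 to -0.01, adjusted p = 0.163), with 119 reads after PBS and 71 after CGRP.

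Neither angiopoietin was called at 4 h. Angpt1 stood at 21.2 to 34.5 CPM after PBS and 16.6 to 27.1 CPM after CGRP, with a log2 fold change of -0.13 (95% interval -0.54 to 0.29, adjusted p = 0.742). Angpt2 stood at 4.13 to 8.33 CPM and 2.26 to 5.53 CPM, with -0.39 (-1.10 to 0.33, adjusted p = 0.507). The ranges of PBS and CGRP libraries overlapped for both genes.

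Angptl2, a secreted protein that binds integrins and is known from inflamed adipose tissue, fell at 4 h. It stood at 740, 774, 560 and 680 CPM after PBS and at 341, 411, 507 and 439 CPM after CGRP, with no overlap. The mean went from 688 ± 94.0 to 424 ± 68.8 CPM, a log2 fold change of -0.70 ± 0.12 (adjusted p = 0.000602, exact permutation p = 0.0286). Angptl1, described as an inhibitor of endothelial cells, stood at 377, 449, 371 and 383 CPM after PBS and at 253, 316, 320 and 298 CPM after CGRP. It fell by 0.41 ± 0.09 on the log2 scale (adjusted p = 0.00349, exact permutation p = 0.0286). Both calls were kept with any 1 library left out.

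Angptl4, an inhibitor of lipoprotein lipase that PPAR receptors and hypoxia induce, stood at 74.8, 72.7, 199 and 67.3 CPM after PBS and at 167, 227, 186 and 226 CPM after CGRP at 4 h. PBS replicate 3 lay within the CGRP range and the other 3 lay below it. The log2 fold change was 0.96 (95% interval -0.24 to 2.17, adjusted p = 0.285). Without PBS 4 h replicate 3 it was 1.51 and still not called (adjusted p = 0.106). The same library had the highest level of the PBS 4 h libraries for Gal, a neuropeptide gene (3.36 CPM against 0 to 0.285), and for Il33, an alarmin gene (350 CPM against 157 to 219), both chosen after their values were seen. Gal was at 41.7 to 120 CPM and Il33 at 442 to 949 CPM in the CGRP libraries at 4 h. Among the PBS 4 h libraries, replicate 3 was the lowest for Angptl1 (371 CPM) and Angptl2 (560 CPM), which CGRP lowered. For Vegfc, which CGRP also lowered, it was the highest (20.9 CPM against 15.0 to 19.5). For Vegfd, which CGRP raised, it lay within the PBS range (22.8 CPM against 22.4 to 35.2). Whether that library shares anything with the CGRP libraries was not tested.

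**Figure D3:**
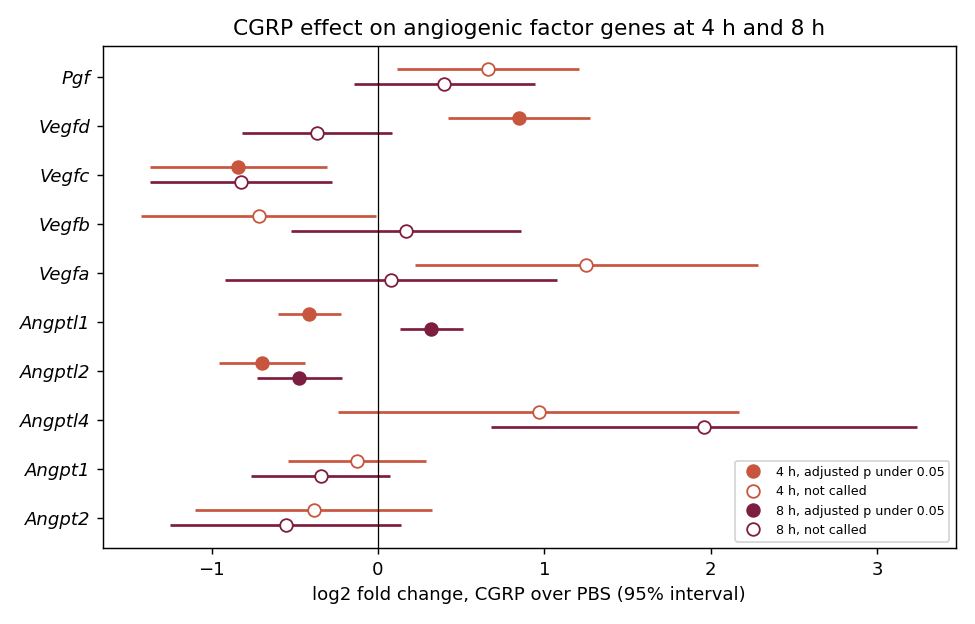
Log2 fold change between CGRP and PBS libraries at 4 h and 8 h for the 10 secreted factors, with 95% intervals and filled symbols for calls at an adjusted p under 0.05. Vegfb, Vegfd and Angptl1 lie on opposite sides of 0 at the 2 times, and Vegfc, Angptl2, Angpt1 and Angpt2 below 0 at both. The 8 h intervals of Vegfb and Vegfd span 0, as do those of Angpt1 and Angpt2 at both times.

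At 8 h the comparison used other libraries, and 2 of the 10 genes were called: Angptl1 rose and Angptl2 fell. Over all genes 8.67% were called, 5.00% higher and 3.67% lower. In 2 of the 10, Vegfc and Angptl4, the groups did not overlap, against 14.8% of all genes, and neither was called. The median log2 fold change was -0.13 against -0.018 for all genes. Of the genes called at 8 h, 698 were higher and 512 lower. With upper-quartile scaling the share that was higher went to 45.0% of the calls.

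Angptl1 stood at 305, 342, 328 and 370 CPM after PBS and at 458, 414, 440 and 369 CPM after CGRP at 8 h. PBS replicate 4 and CGRP replicate 4 met at about the same level and the other CGRP libraries lay above all of the PBS libraries. The log2 fold change was 0.32 ± 0.09 (adjusted p = 0.0306, exact permutation p = 0.0571), from 336 ± 26.8 to 420 ± 38.7 CPM. The call was lost without CGRP 8 h replicate 1 or 3 or PBS 8 h replicate 1 or 3, with log2 fold changes of 0.28 to 0.39 over all 8 left-out libraries and adjusted p up to 0.110. It was also lost with upper-quartile scaling (0.28, adjusted p = 0.0657), without the 4 libraries with the most genes detected (0.33, adjusted p = 0.170) and without the 3 PBS libraries rich in Gm10800 (0.20, adjusted p = 0.626). That last fit leaves 1 PBS library at 8 h, whose spread is assumed to be that of the other groups.

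Angptl2 stood at 737, 842, 589 and 800 CPM after PBS and at 478, 589, 558 and 512 CPM after CGRP at 8 h. PBS replicate 3 and CGRP replicate 2 were at the same level, and otherwise CGRP libraries were lower. Its log2 fold change was -0.47 ± 0.12 (adjusted p = 0.0201, exact permutation p = 0.0571). The call was lost without CGRP 8 h replicate 1 or 4 or PBS 8 h replicate 2 or 4 (adjusted p up to 0.0822), and without the 4 libraries with the most genes detected (-0.41, adjusted p = 0.182) or the 3 PBS libraries rich in Gm10800 (-0.57, adjusted p = 0.135).

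Vegfc had a change at 8 h of the same size as at 4 h, just outside the threshold. It stood at 10.3, 13.6, 18.5 and 13.4 CPM after PBS and at 3.84, 9.60, 9.06 and 9.18 CPM after CGRP, and no CGRP library reached the lowest PBS library. The log2 fold change was -0.82 (95% interval -1.37 to -0.28, adjusted p = 0.0545, exact permutation p = 0.0286). It was called by DESeq2 (adjusted p = 0.0291), with upper-quartile scaling (adjusted p = 0.0423) and with no filter on low counts (adjusted p = 0.00539). Leaving out single libraries gave adjusted p of at least 0.05 and up to 0.187, leaving out the 4 libraries with the most genes detected 0.123, and leaving out the 3 PBS libraries rich in Gm10800 0.429 (-0.76).

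Angptl4 had the largest difference of the 10 genes at 8 h. It stood at 33.7, 48.6, 57.4 and 7.79 CPM after PBS and at 139, 95.1, 64.2 and 275 CPM after CGRP, with no overlap and a wide spread in both groups. The log2 fold change was 1.96 (95% interval 0.68 to 3.24, adjusted p = 0.0599, exact permutation p = 0.0286). DESeq2 called it (adjusted p = 0.00762), as did the edgeR fit without CGRP 8 h replicate 3 (adjusted p = 0.0386), and leaving out other single libraries gave 1.45 to 2.27. It was 1.44 (adjusted p = 0.351) without the 4 libraries with the most genes detected and 4.21 (adjusted p = 0.140) without the 3 PBS libraries rich in Gm10800, where the 1 PBS library left is the lowest of the 4. Its share of the angiopoietin-like genes' level per kilobase was 10.6% ± 6.56 and 24.9% ± 2.53 after PBS and CGRP at 4 h, and 4.31% ± 2.65 and 14.5% ± 8.77 at 8 h.

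The remaining genes were not called at 8 h. Vegfd stood at 25.7, 19.0, 13.8 and 25 CPM after PBS and at 16.9, 10.7, 17.4 and 20.3 CPM after CGRP, with overlap and a log2 fold change of -0.37 (95% interval -0.82 to 0.08, adjusted p = 0.339). Pgf, at 63.0 to 112 CPM after PBS and 94.2 to 168 CPM after CGRP, gave 0.40 (-0.14 to 0.94, adjusted p = 0.391). Angpt1 gave -0.34 (-0.76 to 0.07) and Angpt2 -0.56 (-1.25 to 0.14). Vegfa gave 0.08 (-0.92 to 1.08) and Vegfb 0.17 (-0.52 to 0.86).

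The difference between the CGRP effects at the 2 times was tested as an interaction. It was called for 2 of the 10 genes, Angptl1 and Vegfd, against 1.12% of all genes (0.695% higher and 0.423% lower). For Angptl1 the effect at 8 h exceeded that at 4 h by 0.73 ± 0.13 on the log2 scale (adjusted p = 0.00527), and the call was kept with any 1 of the 16 libraries left out (0.66 to 0.79). For Vegfd the difference was -1.22 ± 0.30 (adjusted p = 0.0498), just inside the threshold. That call was lost in 12 of the 16 fits that left out 1 library, with values of -1.38 to -1.05 and adjusted p up to 0.112, and held only without CGRP 4 h replicate 3, CGRP 8 h replicate 4, PBS 4 h replicate 4 or PBS 8 h replicate 3. Without the 3 PBS 8 h libraries rich in Gm10800 neither difference was called (Angptl1 0.60, adjusted p = 0.194; Vegfd -1.46, adjusted p = 0.0905), and without the 4 libraries with the most genes detected Vegfd gave -1.13 (adjusted p = 0.123). The difference for Vegfc was 0.02 with a 95% interval of -0.76 to 0.79.

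Time itself was compared within each treatment, with the same libraries as above. After CGRP, Vegfd was lower at 8 h than at 4 h by a log2 fold change of -1.56 ± 0.21 (adjusted p = 9.3e-05) and Angptl1 was higher by 0.50 ± 0.09 (adjusted p = 0.00133). Both passed the test, as 7.26% of all genes did (4.20% higher and 3.05% lower), and in both the groups did not overlap, against 12.4% of all genes. Angptl2 gave 0.33 (95% interval 0.08 to 0.59, adjusted p = 0.114) and was called without CGRP 4 h replicate 3 (adjusted p = 0.0422) and with no filter on low counts (0.35, adjusted p = 0.00492). After PBS, edgeR called 0 of the 10 genes between 4 h and 8 h, where 0.516% of all genes were called (0.265% higher and 0.251% lower). DESeq2 also called 0, and 2 of the 10, Angptl1 and Angptl4, had an unadjusted p under 0.05. Those 2 had no overlap between the PBS groups, against 7.52% of all genes: Angptl1 gave -0.23 (adjusted p = 0.264) and Angptl4 -1.49 (-2.76 to -0.22, adjusted p = 0.292).

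Receptors for these ligands were read from a list of 12 genes, of which 8 passed the filter. At 4 h and again at 8 h, 1 of the 8 rose and 1 fell, with a median log2 fold change of 0.15 at both times. For this list and those that follow, the shares over all genes were 7.84% higher and 8.37% lower at 4 h. At 8 h they were 5.00% and 3.67%. The medians over all genes were -0.0021 and -0.018. The lists were chosen with earlier results of these data known, and whether a list differs from all genes was not tested. Nrp1, a co-receptor of VEGF ligands and semaphorins, fell from 419, 470, 383 and 392 CPM to 287, 327, 344 and 316 CPM at 4 h (-0.38 ± 0.08, adjusted p = 0.00262). At 8 h it fell from 496, 462, 497 and 488 CPM to 278, 323, 337 and 297 CPM (-0.65 ± 0.08, adjusted p = 4.67e-05). CGRP libraries lay below all PBS libraries at both times, and both calls were kept with any 1 library left out. Itga5, the integrin chain that pairs with Itgb1 to bind fibronectin, rose by a log2 fold change of 1.18 ± 0.25 at 4 h (adjusted p = 0.00549) and 1.04 ± 0.25 at 8 h (adjusted p = 0.0199). The 8 h call for Itga5 was lost without CGRP 8 h replicate 1 or 4 or PBS 8 h replicate 1 or 4 (adjusted p up to 0.0650).

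The signalling receptors themselves were scarce, apart from Tek. Group means were 0.633 to 2.08 CPM for Flt1, 0.346 to 1.26 CPM for Kdr and 0.0809 to 0.461 CPM for Flt4, and Kdr, Flt4 and Tie1 did not pass the filter. Tek, the angiopoietin receptor, stood at 143, 79.8, 111 and 96.8 CPM after PBS and at 116, 102, 104 and 90.6 CPM after CGRP at 4 h, a log2 fold change of -0.05 (95% interval -0.34 to 0.23). At 8 h it stood at 128, 123, 118 and 105 CPM after PBS and at 75.1, 104, 83.9 and 99.6 CPM after CGRP, with no overlap and -0.39 (-0.68 to -0.10, adjusted p = 0.0891). That change was called with no filter on low counts (-0.37, adjusted p = 0.0233) and with only the compared groups in the fit (-0.39, adjusted p = 0.0262). It was not called with the replicate block (-0.38, adjusted p = 0.116) or with any 1 library left out (adjusted p of 0.0692 to 0.2705). Without the 4 libraries with the most genes detected it was -0.40 (adjusted p = 0.291). Without the 3 PBS libraries rich in Gm10800, which leaves 1 PBS library at 8 h, the Tek change was -0.20. The endothelial genes Pecam1 and Cdh5 had group means of 0.41 to 1.16 and 0.10 to 0.26 CPM. Flt1 gave 1.65 (0.08 to 3.22, adjusted p = 0.150) and 0.75 (-0.79 to 2.30), and Nrp2 0.07 (-0.32 to 0.47) and 0.04 (-0.37 to 0.44). For Nrp2 at 8 h the sign turned with upper-quartile scaling (-0.0027).

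Genes that release and trim VEGF ligands were read from a list of 14, of which 12 passed the filter. At 4 h 1 rose and 1 fell, and at 8 h 2 rose and 3 fell, with medians of -0.10 and -0.06. Ccbe1, the extracellular protein that presents the VEGF-C precursor to its protease, fell from 26.4, 30.7, 30.1 and 30.4 CPM to 8.53, 10.3, 19.1 and 18 CPM at 4 h (a log2 fold change of -1.08 ± 0.24, adjusted p = 0.00477). At 8 h it fell from 47.8, 34.3, 51.5 and 61.0 CPM to 17.3, 25.1, 31.8 and 18.7 CPM (-1.06 ± 0.23, adjusted p = 0.00809). No CGRP library reached the PBS range at either time. Adamts3, the protease that cuts that precursor, gave -0.42 at 4 h (95% interval -0.90 to 0.07, adjusted p = 0.257) and fell by 1.28 ± 0.24 at 8 h (adjusted p = 0.00217), from 10.2, 13.0, 19.3 and 14.0 CPM to 3.84, 5.93, 6.77 and 6.73 CPM. The calls of Ccbe1 at both times and of Adamts3 at 8 h were kept with any 1 library left out (the plot of Vegfc, Ccbe1, Adamts3 and Nrp1). Without the 3 PBS 8 h libraries rich in Gm10800 neither was called at 8 h (Ccbe1 -1.38, adjusted p = 0.0536, and Adamts3 -1.26, adjusted p = 0.0901). Without the 4 libraries with the most genes detected Adamts3 kept its call (-1.47, adjusted p = 0.0156) and Ccbe1 lost it at 8 h (-0.87, adjusted p = 0.115).

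**Figure D4:**
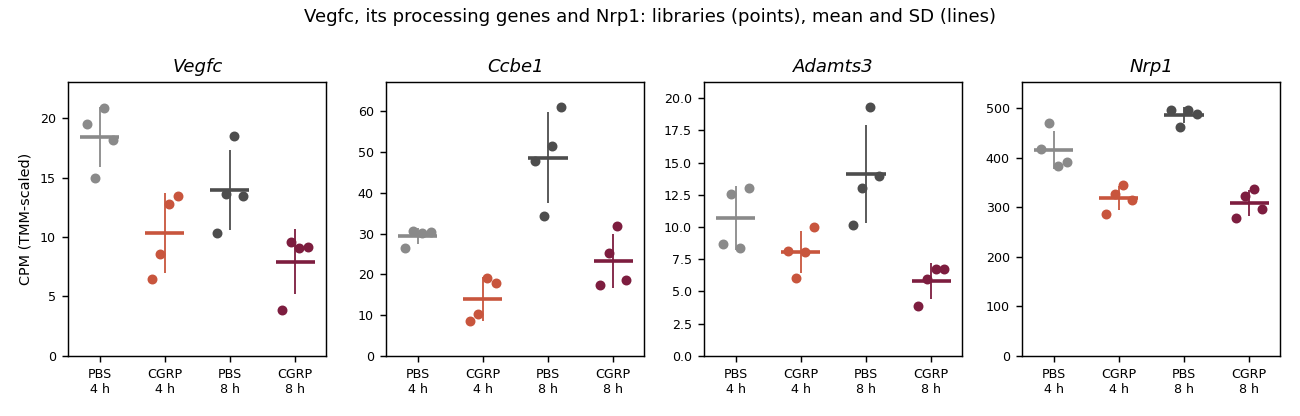
CPM per library of Vegfc, of Ccbe1 and Adamts3, which act on its precursor, and of the co-receptor Nrp1, by group with mean and SD (n = 4). All 4 CGRP libraries lie below all 4 PBS libraries at 8 h for each gene, and at 4 h for each gene except Adamts3. Genes that rose are not shown: of 12 tested processing genes 1 rose and 1 fell at 4 h, and 2 rose and 3 fell at 8 h.

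Other members of the processing list were called too. Pcsk5, a proprotein convertase, rose at 4 h (0.83 ± 0.22, adjusted p = 0.0176), a call lost without PBS 4 h replicate 1 (adjusted p = 0.0506), with no filter on low counts (adjusted p = 0.0566) and with only the compared groups in the fit (adjusted p = 0.0956). At 8 h the membrane protease gene Mmp14 rose (0.49 ± 0.13, adjusted p = 0.0186; lost without PBS 8 h replicate 3 or 4), as did the convertase gene Furin (0.50 ± 0.15, adjusted p = 0.0363; lost in 6 of 8 fits without 1 library, kept without CGRP 8 h replicate 3 or PBS 8 h replicate 2; lost with upper-quartile scaling, adjusted p = 0.0522). The perlecan gene Hspg2, chosen after its values were seen, fell (-0.36 ± 0.11, adjusted p = 0.0443; lost in 6 of 8 fits without 1 library, kept without CGRP 8 h replicate 4 or PBS 8 h replicate 4).

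Among 24 tested genes of other angiogenic factors, 2 rose and 3 fell at 4 h, and 1 rose and 2 fell at 8 h, with medians of 0.0055 and -0.057. Adm, which encodes the vasodilator peptide adrenomedullin, fell at 4 h (-1.13 ± 0.25, adjusted p = 0.00812) and was kept with any 1 library left out, but not with only the compared groups in the fit (-1.13, adjusted p = 0.0532). Fgf2 rose (1.01 ± 0.26, adjusted p = 0.0125; lost without CGRP 4 h replicate 4), and so did the EGF family gene Hbegf, from 2.04 to 13.5 CPM (2.74 ± 0.73, adjusted p = 0.0195; lost without CGRP 4 h replicate 4 or PBS 4 h replicate 2 or 3). The semaphorin gene Sema3f fell (-1.82 ± 0.53, adjusted p = 0.0201; lost without CGRP 4 h replicate 2 or 4 or PBS 4 h replicate 1), as did Egfl6, chosen after its values were seen (-2.84 ± 0.84, adjusted p = 0.0319; lost in 6 of 8 fits without 1 library, kept without CGRP 4 h replicate 4 or PBS 4 h replicate 3). With no filter on low counts Hbegf and Egfl6 were not called (adjusted p = 0.0654 and 0.0720). At 8 h Hbegf rose (2.83 ± 0.83, adjusted p = 0.0490), and Slit3 (-0.33 ± 0.09, adjusted p = 0.0182) and Pdgfd (-0.59 ± 0.18, adjusted p = 0.0448) fell. These 8 h calls were lost when certain single libraries were left out: 5 of 8 for Hbegf, 4 for Slit3 and 6 for Pdgfd, CGRP 8 h replicates 1 and 4 and PBS 8 h replicate 4 among them in each case. The 8 h call of Hbegf was also lost with RLE scaling (adjusted p = 0.0501), upper-quartile scaling (adjusted p = 0.0507) and no filter (adjusted p = 0.139), and that of Pdgfd with only the compared groups in the fit (adjusted p = 0.0604).

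Of 16 tested angiogenesis inhibitors, 1 rose and 7 fell at 4 h, and 0 rose and 2 fell at 8 h. Of all genes 8.37% fell at 4 h and 3.67% at 8 h. The median log2 fold change was -0.32 at 4 h and -0.08 at 8 h. Vash2 fell by 0.90 ± 0.18 on the log2 scale (adjusted p = 0.00126) and Serpinf1, which encodes pigment epithelium-derived factor, by 0.33 ± 0.08 (adjusted p = 0.00884), both kept with any 1 library left out. Vash2 is listed with its family although its protein is better known for promoting vessel growth. The matrix genes Dcn and Sparcl1 fell by 0.28 ± 0.08 (adjusted p = 0.0160) and 0.32 ± 0.09 (adjusted p = 0.0167), calls lost without CGRP 4 h replicate 1 or 3, and also without PBS 4 h replicate 4 for Dcn and without CGRP 4 h replicate 4 or PBS 4 h replicate 1 for Sparcl1. Dcn is also among the 11 stromal markers, whose sum was lower after CGRP although 2 of them rose at each time. The gene that rose was Thbs1, thrombospondin, chosen after its values were seen. It stood at 44.7, 60.4, 80.8 and 38.9 CPM after PBS and at 70.3, 232, 191 and 472 CPM after CGRP (2.10 ± 0.55, adjusted p = 0.0219). CGRP replicate 1 lay within the PBS range and replicate 4 was the highest. The call was lost without CGRP 4 h replicate 4 (1.56, adjusted p = 0.0777) or PBS 4 h replicate 1, 2 or 4, and with only the compared groups in the fit (adjusted p = 0.0715). At 8 h Timp2 (-0.31 ± 0.09, adjusted p = 0.0356) and Dcn (-0.26 ± 0.08, adjusted p = 0.0387) fell, and these calls were lost in 7 and 8 of the 8 fits without 1 library, Timp2 being kept only without CGRP 8 h replicate 3. With DESeq2, 4 inhibitors were called at 8 h.

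**Figure D5:**
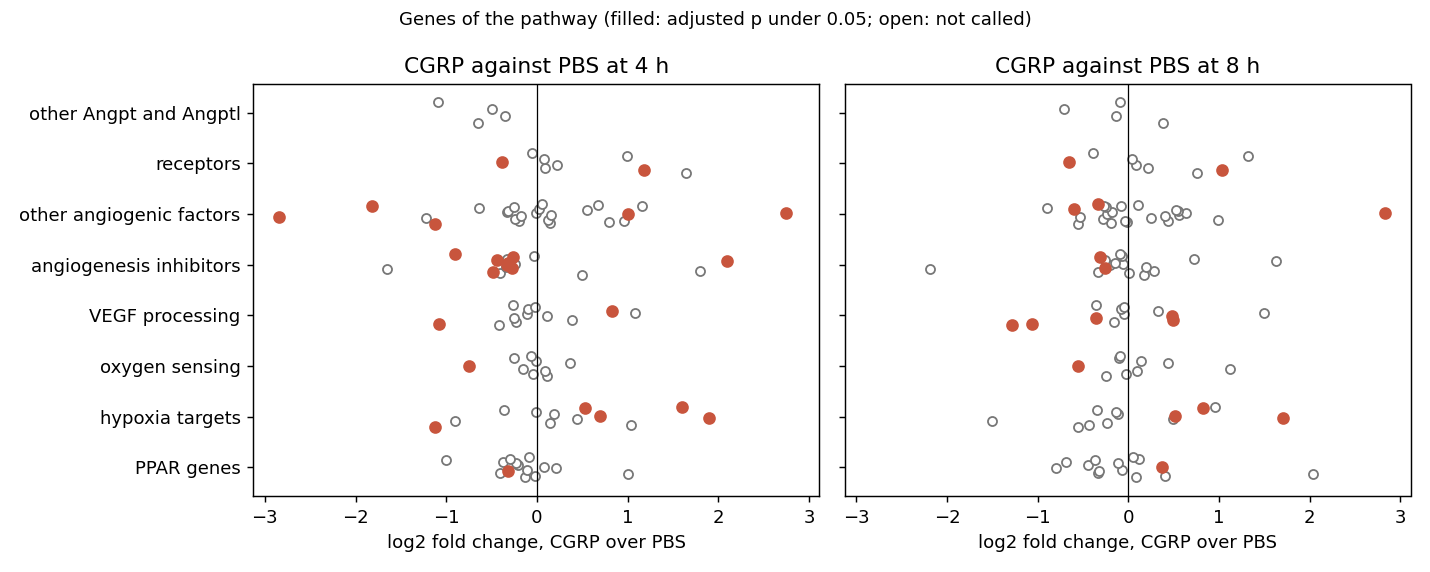
Log2 fold change between CGRP and PBS libraries (x axis) of each tested gene, 1 point per gene, by list at 4 h (left) and 8 h (right), filled where the adjusted p was under 0.05 and open where it was not. The angiogenesis inhibitors have the most genes that fell at 4 h, 7 of 16, against 8.37% of all genes, in a list chosen with earlier results known.

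Genes of oxygen sensing and of PPAR receptors were read because they are known to control Vegfa and Angptl4. Of 9 tested oxygen sensing genes 1 fell at each time. It was Epas1, which encodes a hypoxia-inducible factor (-0.75 ± 0.18, adjusted p = 0.00520 at 4 h, and -0.55 ± 0.17, adjusted p = 0.0466 at 8 h). The 8 h call was lost in 7 of the 8 fits without 1 library and kept only without PBS 8 h replicate 3. Hif1a gave 0.37 (95% interval 0.07 to 0.67, adjusted p = 0.0903) and 0.44 (0.14 to 0.74, adjusted p = 0.0649). Of 12 tested hypoxia targets outside the secreted factors 4 rose and 1 fell at 4 h, and 3 rose and 0 fell at 8 h, with medians of 0.31 and -0.12. Those that rose encode glycolytic enzymes and, in Slc2a1, a glucose transporter: Hk2 (1.89 ± 0.35, adjusted p = 0.00174), Slc2a1 (1.60 ± 0.38, adjusted p = 0.00783), Ldha (0.69 ± 0.12, adjusted p = 0.000519) and Pgk1 (0.53 ± 0.13, adjusted p = 0.00645) at 4 h, and Hk2 (1.71 ± 0.36, adjusted p = 0.00988), Pgk1 (0.82 ± 0.13, adjusted p = 0.000515) and Ldha (0.51 ± 0.12, adjusted p = 0.0112) at 8 h. The 8 h call for Ldha was lost without CGRP 8 h replicate 1 (adjusted p = 0.0532). The gene that fell at 4 h was Adm, which is in both lists. Of 14 tested PPAR regulators and targets 1 fell at 4 h, Lmf1 (-0.32 ± 0.11, adjusted p = 0.0460; kept only without PBS 4 h replicate 3, and lost with no filter, adjusted p = 0.191, or only the compared groups, adjusted p = 0.0729), and 1 rose at 8 h, the lipid droplet gene Plin2 (0.37 ± 0.10, adjusted p = 0.0293; lost without CGRP 8 h replicate 1 or 4 or PBS 8 h replicate 1 or 4, and with upper-quartile scaling, adjusted p = 0.0519). Their medians were -0.17 and -0.09. Of the genes from these lists named as called at 8 h, Nrp1, Adamts3 and Pgk1 kept the call without the 4 libraries with the most genes detected, and Nrp1, Mmp14 and Plin2 without the 3 PBS libraries rich in Gm10800. At 4 h the calls of Hbegf, Egfl6, Thbs1, Serpinf1, Dcn, Sparcl1 and Lmf1 were lost without the 4 libraries with the most genes detected.

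Of other angiopoietin and angiopoietin-like genes, Angpt4, Angptl6, Angptl7 and Angptl8 were read, and these 4 passed the filter. Neither edgeR nor DESeq2 called any of the 4 at 4 h or 8 h, and 2 at 4 h and 0 at 8 h had an unadjusted p under 0.05 in edgeR. Their medians were -0.57 at 4 h and -0.12 at 8 h. Angptl7 was the most abundant, with group means of 142 to 233 CPM, and gave -0.49 at 4 h (95% interval -1.38 to 0.40) and -0.71 at 8 h (-1.61 to 0.18).

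For each gene called at 4 h or 8 h, the 3 genes most like it were found by Pearson's r of log2 CPM over the 16 libraries. The search covered 9841 genes whose mean was 5 CPM or more. Gene models with only a model or clone name, such as Gm and Rik names, were left out. The libraries share their groups, so r holds group differences as well as variation within groups, and it is given as a description. Vegfc was most like Lama2 (0.86), Plau (0.85) and Svep1 (0.85), and Vegfd like Kcnk5 (0.91), Ifi204 (0.88) and Arl4d (0.88). Angptl1 was most like Smtn (0.89), Zfp688 (0.88) and Pdk3 (0.86), and Angptl2 like Thrb (0.95), Plxnb2 (0.95) and Lpar1 (0.95).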

How the data were processed

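The authors deposited raw counts, whole numbers of reads per gene. Per the submitters' processing notes, STAR 2.5.4, featureCounts and the build mm10 were used, on pairs of 25-base reads. Their annotation, strand setting and handling of multi-mapping reads: not given in the sources used here. Nextera XT does not mark the strand. The table has 1 column of whole numbers per library, and all 16 were used. Over the 24 pairs of replicates the chi-square of the counts was 6.52 to 22.7 times its degrees of freedom, so replicates differed by more than sampling noise. GENCODE M21 gave positions and exon lengths (for 49439 of 52997 symbols, and for all 10 secreted factors).

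The fit used edgeR 4.0.16 under R 4.3.3: filterByExpr, TMM, and a robust quasi-likelihood fit with 1 mean per group over all 16 libraries (12 residual degrees of freedom). P-values are two-sided and adjusted by the Benjamini-Hochberg method over 13949 genes, and rose or fell stands for an adjusted p under 0.05. Errors of log2 fold changes are SE. CPM use the TMM library sizes, and exact permutation tests use log2 CPM with a prior count of 0.5. Counts are of PCR-amplified reads, for which the labels describe no molecular identifiers, so they are not counts of independent molecules. Intervals come from the spread between libraries. The biological coefficient of variation was 17.4%. The fit was tested on simulated counts in which 63, 68 and 67 genes were changed by 1.5, 2 and 4 times at 4 h. It recovered 36.5%, 67.6% and 85.1% of them, and 3.82% of its calls were false. Fewer genes were changed there than were called in the data at 4 h.

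The secreted factors, the gene lists and the marker lists were chosen with earlier results of these data known. One list gene is not reported here. From each pathway list up to 4 called genes with the smallest p are named at 4 h and at 8 h, and Flt1, Kdr, Flt4, Nrp1, Nrp2, Tek and Tie1 always. Alternatives were other scalings (RLE, upper quartile), DESeq2 1.42.0, no filter, a replicate block, only the compared groups, and each library left out.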

Additional observations from a re-analysis of the deposited data

Results flagged for a closer look

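In 5 of the 40 sets of 4 libraries (10 genes in 4 groups), 1 library stood apart from the other 3 by Dixon's test at the 95% level, which chance does in about 1 of 20. Vegfb in PBS 8 h replicate 4 was at 4.03 CPM, against 2.67 to 2.78 CPM in the others. Vegfc in CGRP 8 h replicate 1 was at 3.84 CPM, against 9.06 to 9.60 CPM, and this library was the lowest of all 16 for Vegfc. Angpt2 in CGRP 8 h replicate 2 was at 9.81 CPM, against 3.64 to 4.27 CPM. Angptl1 in PBS 4 h replicate 2 was at 449 CPM, against 371 to 383 CPM. Angptl4 in PBS 4 h replicate 3 was at 199 CPM, against 67.3 to 74.8 CPM, which lies among the CGRP libraries of that time.

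The effect of CGRP differed between 8 h and 4 h for Vegfd, by -1.22 on the log2 scale, and for Angptl1, by 0.73, in the interaction test of edgeR.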

How the results depend on the processing

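At 4 h every alternative that kept all libraries called 4 of the 10 secreted factors, and leaving out 1 library gave 3 to 5. Without the 4 libraries with the most genes detected 4 were called. They were Vegfd (1.115, adjusted p = 0.00136), Vegfc (-0.96, adjusted p = 0.0468), Angptl1 (-0.46, adjusted p = 0.0107) and Angptl2 (-0.80, adjusted p = 0.00192). At 8 h, where 2 were called, DESeq2 called 4, leaving out 1 library gave 0 to 2, and both alternatives chosen after seeing the data gave 0 (without the 4 libraries with the most genes detected, and without the 3 PBS 8 h libraries rich in Gm10800, which leaves 1 PBS library that is assumed to vary like the other groups). For the difference between the times, where 2 were called, leaving out 1 library gave 1 to 2 and these alternatives gave 1 and 0. After CGRP the change with time was called for 2 to 3 with 1 library left out, and after PBS for 0 under every alternative run. The causes were not tested. The permutation p-values were computed again with a prior count of 2.

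Signs turned only for effects that were not called. Without the 4 libraries with the most genes detected, Vegfa at 8 h was -0.21, the difference between times was -0.060 for Vegfc and 0.016 for Angpt1, Angpt1 after PBS was -0.054, Pgf after CGRP was -0.060 and Nrp2 at 4 h was -0.22. Without the 3 PBS libraries, Vegfb was -0.21 at 8 h and 0.23 between the PBS groups, and Nrp2 at 8 h was -0.10. With upper-quartile scaling Nrp2 at 8 h was -0.0027. Leaving out 1 library gave -0.20 to 0.063 for Angpt1, -0.19 to 0.20 for Nrp2 and -0.17 to 0.12 for Tek at 4 h, and -0.18 to 0.35 for Vegfa and -0.078 to 0.13 for Nrp2 at 8 h. It gave -0.17 to 0.24 for the difference of Vegfc, -0.033 to 0.28 for Angpt1 after PBS, and -0.090 to 0.33 for Pgf and -0.037 to 0.57 for Angpt2 after CGRP.

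Counts of all genes called moved more. At 4 h 2262 became 1481 without CGRP 4 h replicate 4. At 8 h 1210 became 577 to 1279 with 1 library left out, 191 without the 4 libraries and 146 without the 3. For the difference 156 became 427 with DESeq2, 456 with no filter, 80 to 196 with 1 library left out, 63 and 53. After PBS 72 became 334 with DESeq2, 422 with no filter, 131 with only the compared groups, 17 to 280 with 1 library left out and 20 without the 3, and after CGRP 1012 became 666 without CGRP 8 h replicate 2. At 4 h, upper-quartile scaling moved the share of calls that were higher to 39.8%.

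Correlations between libraries with the same replicate number in different groups were low: 0 of 16 exceeded 0.1 (-0.032 to 0.092). In 7 of 16 the best match was the library's own number, where 1 in 4 would be by chance. Whether the numbers mark pairs cannot be told from these values. With the replicate block 4, 3, 2, 0 and 2 secreted factors were called in the comparisons at 4 h and 8 h, of the difference, and of time after PBS and after CGRP, with 2167, 1100, 159, 69 and 947 genes in all. Among the secreted factors Vegfc at 8 h was the gene added (-0.84, adjusted p = 0.0264). Of the pathway list genes named as called, the block ended the calls of Lmf1 (adjusted p = 0.0552) and Thbs1 (0.0521) at 4 h and of Timp2 (0.0577), Epas1 (0.0508) and Hspg2 (0.0546) at 8 h. Depth limits Vegfa most, at 283 reads in all libraries.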
